A study of Mus musculus with 4 samples.

Results

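The transcription factor p53 and the cell death machinery it feeds were followed through 10 genes in whole mouse embryos that lack Ddx6, an RNA helicase of mRNA decay and translational repression. The genes were Cdkn1a, Ccng1, Phlda3, Trp53inp1, Mdm2, Bbc3, Pmaip1, Bax, Fas and Eda2r. They were chosen by symbol, with earlier results of these data known, and all 10 were present among the 24421 genes of the count table. Fas alone stayed under the minimum of 10 counts in at least 1 library, so 9 of the 10 were among the 14393 genes compared.

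All embryos were of the ICR strain and RNA came from the embryo as a whole. One library was made from wild-type embryos at embryonic day 7.5 (E7.5 WT), another from wild-type embryos at embryonic day 8.5 (E8.5 WT), and 2 from Ddx6 -/- embryos at embryonic day 8.5 (KO1 and KO2). The null allele lacks a floxed exon that a CAG-Cre deleter line removed in the germline, and the KO embryos came from heterozygous parents. The KO libraries were pools: KO1 combined a before-head-fold embryo with a head-fold embryo, whereas KO2 held before-head-fold embryos only, so the pools differ in morphological stage as well as in their embryos.

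p53 is made and destroyed continuously in embryonic cells, chiefly by the ubiquitin ligase MDM2, and it accumulates when DNA damage, faulty ribosome assembly or oncogene signalling blocks that destruction. It then binds DNA as a tetramer and activates genes of several kinds: brakes on the cell cycle and on growth (Cdkn1a, Phlda3, Trp53inp1), a feedback inhibitor (Mdm2), a cyclin that acts on MDM2 (Ccng1), triggers of the mitochondrial death pathway (Bbc3, Pmaip1, Bax) and receptors of the tumour necrosis factor receptor family (Fas, Eda2r). The epiblast of the gastrulating mouse embryo is known for its readiness to undergo apoptosis.

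The libraries held 8198402 (KO1) to 12562640 counts (E8.5 WT), and all 8 germ layer markers were detected in every library. Ddx6 itself had 2943 and 5715 reads in E7.5 and E8.5 WT, against 706 and 929 in KO1 and KO2, a log2 change of -2.54 ± 0.10 (SD, n = 2) from E8.5 WT. KO2 stood apart from the other libraries: Prl3d1, the placental lactogen of trophoblast giant cells, had 4156 reads there and between 1 and 27 elsewhere, and Eomes, of the early mesoderm and trophoblast, had 3128 reads in KO2, 77 in KO1 and 64 in E8.5 WT, and 1333 in E7.5 WT. Values are therefore given for each KO library on its own. In whole-embryo RNA, fewer cells of a type and less RNA per cell cannot be told apart.

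Levels are in CPM, counts scaled to a common library total after TMM normalization. Changes are differences of log2 CPM with a prior count of 2, and a gene was called when its change passed 1 or -1, the study's criterion. There was 1 library per WT stage, and no test between the stages was run. The 95% interval beside a change is an exact binomial (Clopper-Pearson) interval of the reads of 2 libraries, and it covers counting error only.

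None of the 9 genes compared was higher past the threshold in both KO libraries against E8.5 WT, where 3.44% of all genes were, and none was lower, where 1.79% were. Cdkn1a, Ccng1, Phlda3 and Trp53inp1 each lay above E8.5 WT in both KO libraries by more than counting error, and Mdm2, Bbc3, Pmaip1, Bax and Eda2r did not. This made 4 of 9 genes with both intervals above 0 against 13.7% of all genes, and 0 of 9 with both below 0 against 15.8%. The genes were chosen with earlier results of these data known, and the interval rule was added after values were seen. These shares are therefore no test of the set. The median change of the 9 was 0.28 in KO1 and 0.56 in KO2, and that of all genes compared was -0.01 and -0.00.

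**Figure D1:**
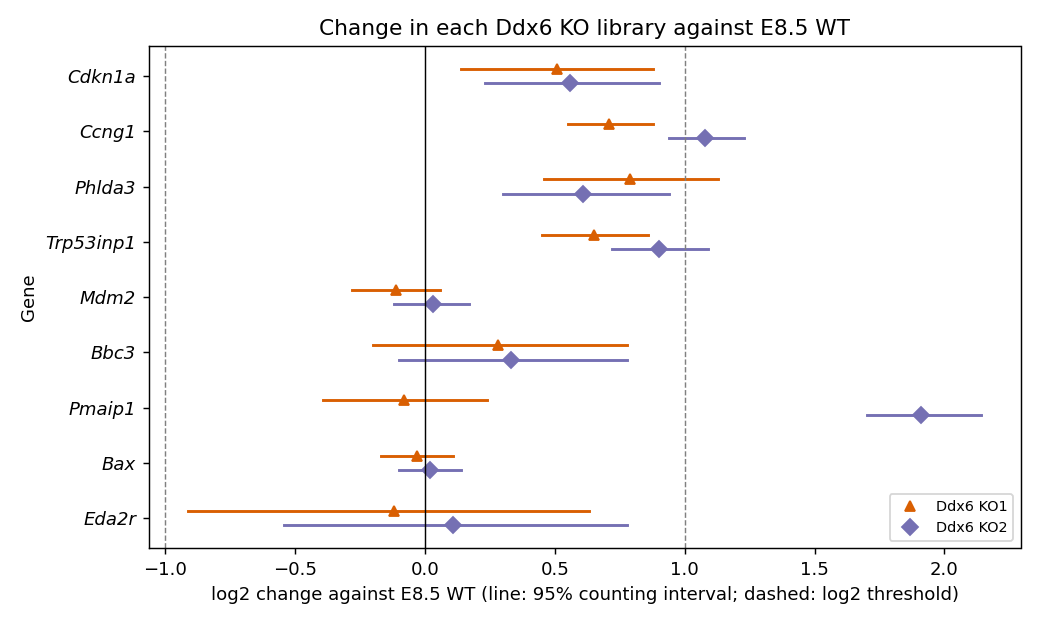
The plot gives the log2 change of the 9 genes compared (vertical axis) against E8.5 WT (horizontal axis), with triangles for KO1, diamonds for KO2 and lines for the 95% counting interval; dashed lines mark the threshold of 1. Cdkn1a, Ccng1, Phlda3 and Trp53inp1 lie to the right of 0 in both libraries, Mdm2 and Bax sit at 0, and Pmaip1 is at 1.91 in KO2 and -0.08 in KO1.

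Cdkn1a encodes p21, the inhibitor of cyclin-dependent kinases through which p53 halts the cell cycle in G1. The gene lies at chr17:29090976-29100727 on the plus strand (GRCm38). It had 269 and 126 reads in E7.5 and E8.5 WT, against 123 and 185 in KO1 and KO2, or 22.6, 10.2, 14.7 and 15.2 CPM. Both KO levels lay between those of the WT stages, and the KO libraries differed from each other by less than counting error (log2 difference 0.05, interval -0.28 to 0.39). Against E8.5 WT the change was 0.51 (0.14 to 0.88) in KO1 and 0.56 (0.23 to 0.90) in KO2. Against E7.5 WT it was -0.62 (-0.95 to -0.31) and -0.57 (-0.85 to -0.30).

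Ccng1 encodes cyclin G1, which recruits a phosphatase to MDM2. The gene lies at chr11:40748552-40755311 on the minus strand. It had 552 and 594 reads in E7.5 and E8.5 WT, against 666 and 1248 in KO1 and KO2, or 46.4, 48.3, 79.3 and 102 CPM. The WT stages differed by less than counting error (0.06, -0.11 to 0.23), and both KO libraries were above both of them, at 90.9 ± 16.3 CPM (SD, n = 2). The change against E8.5 WT was 0.71 (0.55 to 0.88) in KO1 and 1.08 (0.94 to 1.23) in KO2, so KO2 alone passed the threshold. KO2 exceeded KO1 by 0.37 (0.23 to 0.51), more than counting error.

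Cdkn1a and Ccng1 are classical direct targets and were higher than E8.5 WT in both KO libraries. Their promoters are therefore shown, from RefSeq (GRCm38.p6), from 250 bases before the transcription start to 50 after it. Capitals mark a pair of p53 half-sites, each of 10 bases, searched with an intact C and G core, at most 3 bases between them and at most 3 mismatches in 20 bases. The site is a palindrome, so both strands were covered. The Cdkn1a window is that of the upstream start of the gene, chr17:29090729-29091028 on the plus strand, and the Ccng1 window is chr11:40755237-40755536 on the minus strand.
Cdkn1a: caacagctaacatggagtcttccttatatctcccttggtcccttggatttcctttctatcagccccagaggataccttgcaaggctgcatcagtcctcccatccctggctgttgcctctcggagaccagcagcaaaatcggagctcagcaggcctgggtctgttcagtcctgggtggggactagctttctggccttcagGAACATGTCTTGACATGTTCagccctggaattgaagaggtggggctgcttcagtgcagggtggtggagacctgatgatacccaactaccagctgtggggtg
Ccng1: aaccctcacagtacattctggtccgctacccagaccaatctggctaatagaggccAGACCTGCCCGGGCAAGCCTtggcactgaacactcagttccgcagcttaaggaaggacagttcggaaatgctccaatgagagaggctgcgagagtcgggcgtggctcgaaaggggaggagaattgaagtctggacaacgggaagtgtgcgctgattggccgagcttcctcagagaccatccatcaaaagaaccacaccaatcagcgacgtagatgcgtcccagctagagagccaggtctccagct

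The Cdkn1a pair (chr17:29090928-29090947) covers bases 51 to 32 before the start and has 1 mismatch, and the Ccng1 pair (chr11:40755462-40755481) covers bases 195 to 176 and also has 1. Bax and Bbc3 held weaker pairs, shown with 5 bases on either side. The Bax pair (chr7:45467079-45467099, minus strand) has 2 mismatches and 1 base between them, and the Bbc3 pair of its first listed start (chr7:16309486-16309505, plus strand) has 3 mismatches.
Bax: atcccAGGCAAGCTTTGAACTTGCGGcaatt
Bbc3: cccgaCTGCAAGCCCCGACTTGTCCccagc

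RefSeq promoters were matched for 8 of the 10 genes, all but Trp53inp1 and Pmaip1. A pair was found in 4 of these 8, and in 6.56% of all 27025 genes with a promoter. Pairs with at most 1 mismatch were found in Cdkn1a and Ccng1, and in 0.252% of all genes. The windows of Mdm2, Fas, Eda2r and Phlda3 held none, which says only that these letters are not in these windows. Phlda3 was higher than E8.5 WT in both KO libraries without a pair, and Trp53inp1 was higher without a window to search. Whether the pairs bear on the levels was not tested. The search was chosen after the values of the genes were seen.

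Phlda3 encodes a pleckstrin homology domain protein that competes with AKT for membrane lipids. The gene lies at chr1:135766119-135769136 on the plus strand. It had 208 and 140 reads in E7.5 and E8.5 WT, against 166 and 213 in KO1 and KO2, or 17.5, 11.4, 19.8 and 17.5 CPM. The KO libraries were above E8.5 WT by 0.79 (0.46 to 1.13) and 0.61 (0.30 to 0.94), and differed from E7.5 WT by less than counting error (0.18, -0.13 to 0.48, and -0.00, -0.28 to 0.28). E8.5 WT was thus the low library of the 4.

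Trp53inp1 encodes a nuclear protein that promotes p53 phosphorylation and autophagy. The gene lies at chr4:11156431-11174379 on the plus strand. It had 188 and 373 reads in E7.5 and E8.5 WT, against 402 and 690 in KO1 and KO2, or 15.8, 30.4, 47.9 and 56.6 CPM. The level was lowest in E7.5 WT, followed by E8.5 WT, then KO1, then KO2, with each neighbouring pair apart by more than counting error. E8.5 WT exceeded E7.5 WT by 0.93 (0.68 to 1.20), and the KO libraries exceeded E8.5 WT by a further 0.65 (0.45 to 0.86) and 0.90 (0.72 to 1.09). Against E7.5 WT the changes were 1.59 and 1.83, past the threshold in both.

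Ccng1 and Trp53inp1 were the members above both WT stages in both KO libraries by counting interval, 2 of 9 against 5.41% of all genes. The 4 comparisons behind this count share the 2 KO and the 2 WT libraries.

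Mdm2 encodes the ubiquitin ligase that destroys p53 and is itself a p53 target, which closes the feedback loop. It had 674 and 743 reads in E7.5 and E8.5 WT, against 471 and 750 in KO1 and KO2, or 56.7, 60.5, 56.1 and 61.6 CPM. The 4 libraries lay within a narrow range. The change against E8.5 WT was -0.11 (-0.28 to 0.06) in KO1 and 0.03 (-0.12 to 0.17) in KO2, and that against E7.5 WT was -0.01 (-0.19 to 0.16) and 0.12 (-0.03 to 0.27). Any difference larger than 0.28 in either direction fell outside all 4 intervals.

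**Figure D2:**
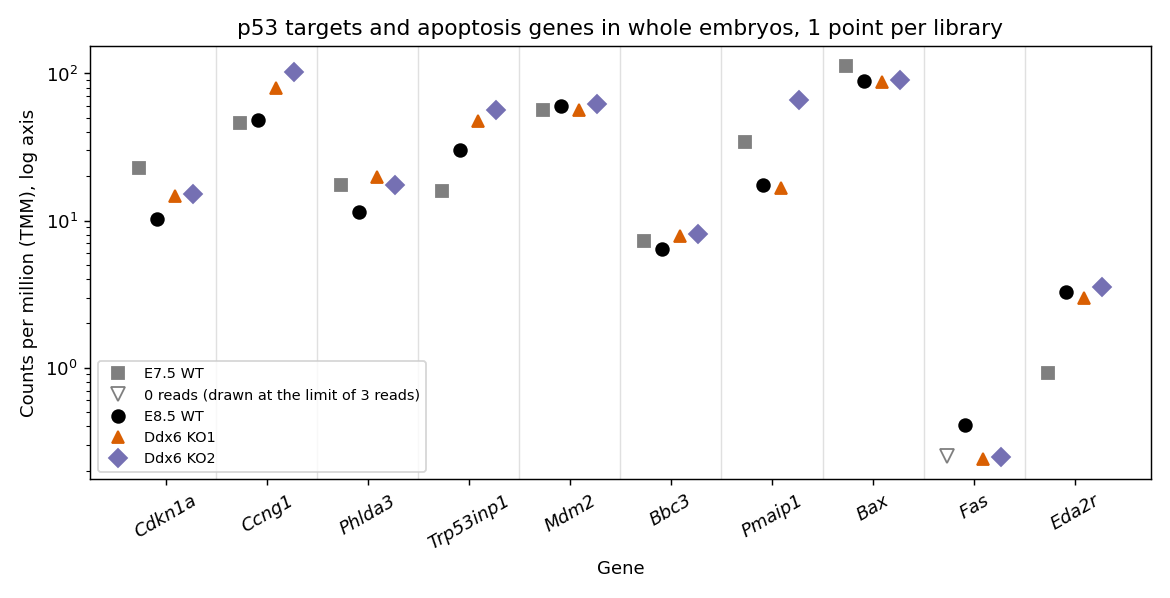
The plot gives the level of each of the 10 genes (horizontal axis) in CPM on a log axis, with squares for E7.5 WT, circles for E8.5 WT, triangles for KO1 and diamonds for KO2, 1 point per library; the open triangle is Fas in E7.5 WT, with 0 reads, drawn at the limit of 3 reads. Ccng1 and Trp53inp1 are higher in both KO libraries than in either WT library, Mdm2 is level, and Pmaip1 stands out in KO2 at 66.5 CPM.

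The mitochondrial death genes differed among themselves. Bbc3 encodes PUMA, a BH3-only protein that disables the BCL2 survival proteins. It had 87 and 79 reads in E7.5 and E8.5 WT, against 66 and 99 in KO1 and KO2, or 7.31, 6.43, 7.86 and 8.12 CPM. Both KO libraries were above E8.5 WT, by 0.28 (-0.20 to 0.78) and 0.33 (-0.10 to 0.78), differences that were not detectable at this depth.

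Bax encodes the pore-forming effector that opens the outer mitochondrial membrane. It had 1345 and 1101 reads in E7.5 and E8.5 WT, against 737 and 1106 in KO1 and KO2, or 113, 89.6, 87.8 and 90.8 CPM. The 3 libraries of embryonic day 8.5 lay together and below E7.5 WT. The KO changes against E8.5 WT were -0.03 (-0.17 to 0.11) and 0.02 (-0.10 to 0.14), and E8.5 WT differed from E7.5 WT by -0.34 (-0.45 to -0.22). Per kilobase of exon Bax was the most abundant of the 10 genes in every library, at 55.7 to 71.7 CPM per kb, where Ccng1, the next, had 13.2 to 29.2.

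Pmaip1 encodes NOXA, the BH3-only partner that neutralizes MCL1. It had 408 and 216 reads in E7.5 and E8.5 WT, against 140 and 810 in KO1 and KO2, or 34.3, 17.6, 16.7 and 66.5 CPM. KO1 was level with E8.5 WT (-0.08, -0.39 to 0.24), while KO2 was higher than every other library, by 1.91 (1.70 to 2.14) against E8.5 WT and 0.95 (0.78 to 1.13) against E7.5 WT. The KO libraries differed from each other by 1.98 (1.73 to 2.26), a 3.96-fold gap, so the KO mean of 41.6 ± 35.2 CPM (SD, n = 2) describes neither of them. Pmaip1 was the sole member past the threshold between KO1 and KO2, where 10.9% of all genes were. Pmaip1 and Ccng1 were the members higher past the threshold in KO2 against E8.5 WT, 2 of 9 against 9.41% of all genes.

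The library in which Pmaip1 was high also differed in its marker genes. The summed level of the 8 trophoblast markers was 276 and 200 CPM in E7.5 and E8.5 WT, against 452 and 868 in KO1 and KO2, and the defining Tpbpa was at 0 in all 4. Summed extraembryonic ectoderm markers were at 397, 144, 124 and 317 CPM in the same order, and maternal decidua markers at 182, 69.2, 121 and 191. In KO2 single genes carried most of these sums: Eomes had 3128 of 3868 extraembryonic ectoderm reads, and Prl8a2 had 1433 of 2327 decidua reads. The median difference of KO2 from KO1 was 0.47 for the extraembryonic ectoderm list, with Cdx2 at -2.64, and -0.54 for the decidua list. Uterine natural killer cell markers summed to 1.35, 0.163, 1.67 and 10.9 CPM, with Klrb1c at 0 in KO2. Macrophage markers summed to 10.6, 14.0, 18.7 and 22.6 CPM. Germ layer markers summed to 830, 361, 390 and 666 CPM, whereas visceral endoderm markers were at 4280, 4870, 2490 and 2370. Pou5f1, a pluripotency gene on the germ layer list, had 4085 of its 8120 reads in KO2 and 3790 of 9877 in E7.5 WT. It had 693 of 4435 in E8.5 WT and 867 of 3276 in KO1. In KO2 against E8.5 WT, Mesp1 of that list was at 3.79 and Pax6 at -3.48. Ccng1 and Trp53inp1 were also higher in KO2 than in KO1, by 0.37 and 0.24 (0.06 to 0.42), and in KO1 the trophoblast, decidua and natural killer cell sums were above those of E8.5 WT as well. Hand1 made up most of the trophoblast sum outside KO2, with 2570 of 3281 reads in E7.5 WT, 2229 of 2463 in E8.5 WT and 3544 of 3792 in KO1. Prl3d1 and Prl2c2 had 3 and 4 reads in KO1. The natural killer cell sums were 14 reads in KO1 and 2 in E8.5 WT. The part of the marker differences in the Pmaip1, Ccng1 and Trp53inp1 levels was not tested.

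**Figure D3:**
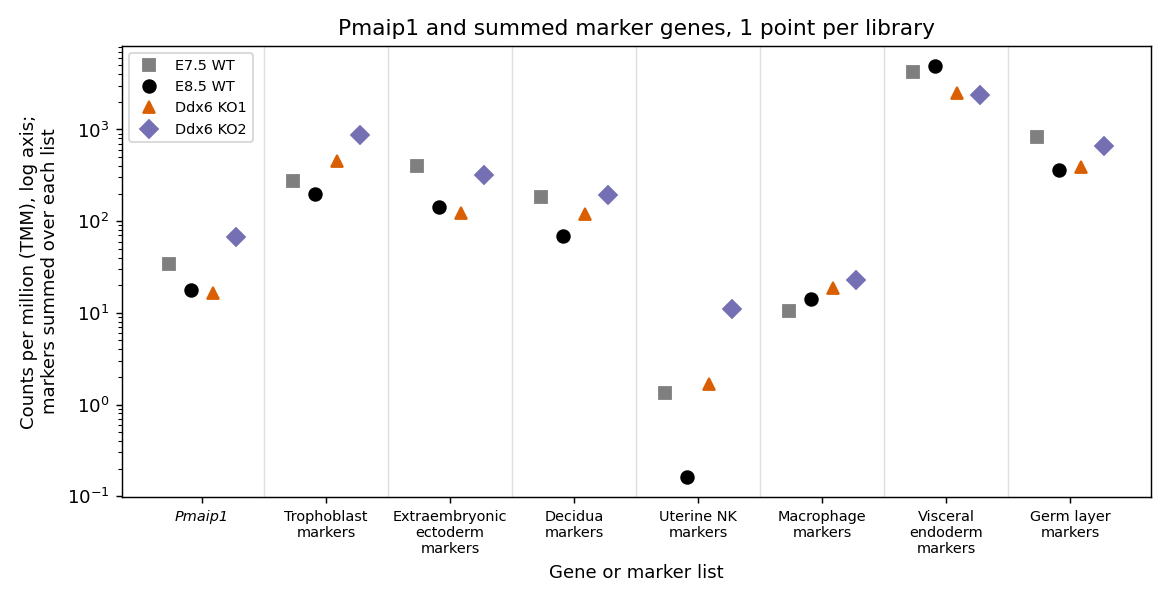
The plot gives the level of Pmaip1 and the summed level of each marker list (horizontal axis) in CPM on a log axis, with squares for E7.5 WT, circles for E8.5 WT, triangles for KO1 and diamonds for KO2, 1 point per library. Pmaip1 is at 16.7 CPM in KO1 and 66.5 in KO2, and the trophoblast, extraembryonic ectoderm, decidua and natural killer cell sums are also higher in KO2 than in KO1. Most of the extraembryonic ectoderm and decidua sums in KO2 comes from Eomes and from Prl8a2.

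Both receptors were expressed at low levels. Fas, the receptor of the FAS ligand, had 0 reads in E7.5 WT, which allows up to 3, and 5 in E8.5 WT, against 2 and 3 in KO1 and KO2. No fold is given at these counts. Eda2r, the receptor of ectodysplasin A2, had 11 and 40 reads in E7.5 and E8.5 WT, against 25 and 43 in KO1 and KO2, or 0.925, 3.25, 2.98 and 3.53 CPM. The 3 libraries of embryonic day 8.5 lay together above E7.5 WT, by 1.64 (0.83 to 2.93), 1.52 (0.61 to 2.86) and 1.75 (0.95 to 3.04). The KO changes against E8.5 WT were -0.12 (-0.91 to 0.63) and 0.11 (-0.54 to 0.78).

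Because the KO pools held embryos of early morphological classes, E7.5 WT is the other reference, and the WT stages show how these genes differ over a day of normal development. Between E7.5 WT and E8.5 WT, 20.0% of all genes passed the threshold in either direction. Among the 9 members these were Cdkn1a, lower at E8.5 by -1.13 (-1.46 to -0.83), and Eda2r, higher by 1.64. Pmaip1 (-0.96, -1.21 to -0.72), Trp53inp1 (0.93), Phlda3 (-0.61, -0.94 to -0.30) and Bax (-0.34) differed by more than counting error without passing it.

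Against E7.5 WT, Trp53inp1 and Eda2r were higher past the threshold in both KO libraries, 2 of 9 against 6.91% of all genes, and none was lower in both. For Eda2r the WT stages differed by as much, and for Trp53inp1 the KO libraries lay beyond E8.5 WT. Ccng1 was above E7.5 WT by 0.77 (0.61 to 0.94) and 1.14 (1.0 to 1.29). These comparisons share the E7.5 WT library.

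**Figure D4:**
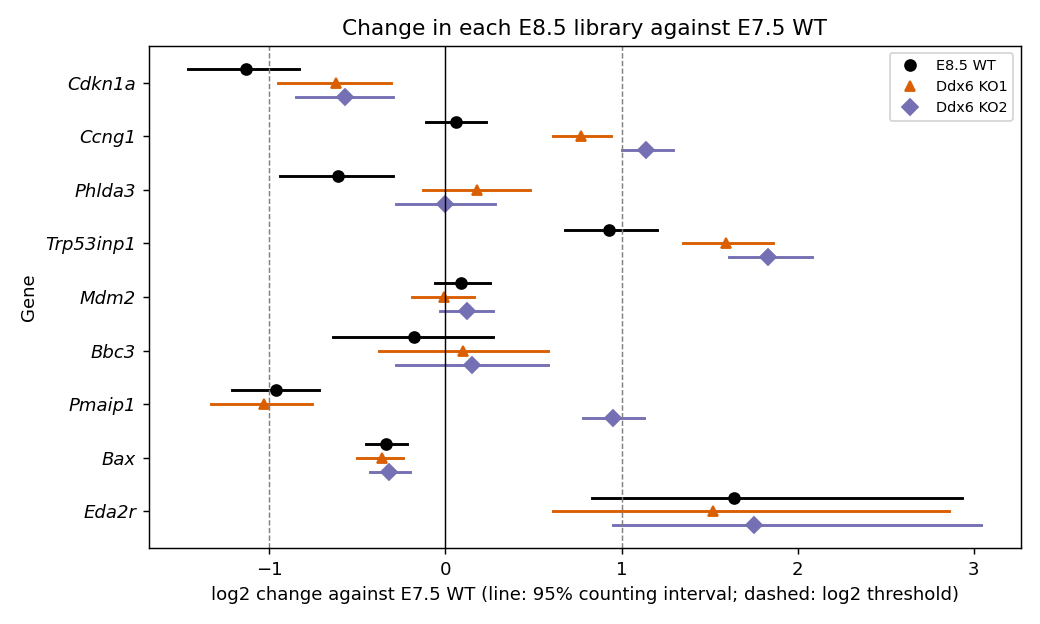
The plot gives the log2 change of the 9 genes compared (vertical axis) against E7.5 WT (horizontal axis), with circles for E8.5 WT, triangles for KO1, diamonds for KO2 and lines for the 95% counting interval; dashed lines mark the threshold of 1. The KO points of Cdkn1a lie between 0 and the E8.5 WT point, those of Bax and Eda2r lie on the E8.5 WT point, and those of Ccng1 and Trp53inp1 lie to the right of it.

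No member passed an adjusted p of 0.05 in the edgeR quasi-likelihood test with Benjamini-Hochberg adjustment, nor did any gene (0% of those tested). In the test against E8.5 WT, whose spread comes from the 2 KO libraries alone, 1052 genes had an unadjusted p under 0.05, among them Ccng1 and Trp53inp1 (adjusted p = 0.666 for both with edgeR). Against both WT libraries as 1 group the edgeR test also called 0% of genes, and 565 had an unadjusted p under 0.05, again with Ccng1 and Trp53inp1 among them (adjusted p = 0.900 for both with edgeR). DESeq2 called 31 and 32 genes in the same designs and no member, and its lowest adjusted p for a member was 0.189, for Ccng1 against both WT libraries. Eda2r received no adjusted p from DESeq2 against E8.5 WT. The spread behind the first of these designs is that between the 2 KO pools, which differed in stage, and that of the second includes the difference between the WT stages.

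The pattern of Cdkn1a over the 4 libraries, high at E7.5, low at E8.5 and intermediate in both KO libraries, was shared by other genes. Among the 11221 genes averaging 50 counts or more per library, the smallest Euclidean distances of centred log2 CPM were those of Tdrp (0.084), Adam15 (0.087), Rec8 (0.088), Cbx6 (0.106) and Lpin3 (0.119), over 4 libraries. Tdrp had 32.0 and 14.6 CPM in E7.5 and E8.5 WT, against 20.4 and 22.8 in KO1 and KO2.

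Trp53, which encodes p53, and several of the genes that govern it were slightly lower than in E8.5 WT. Trp53 had 2824 and 2715 reads in E7.5 and E8.5 WT, against 1642 and 2548 in KO1 and KO2, and differed from E8.5 WT by -0.18 (-0.27 to -0.09) and -0.08 (-0.16 to -0.00). Of 15 kept regulators none passed the threshold in both libraries, 0 had both intervals above 0, where 13.7% of all genes did, and 7 had both below 0, where 15.8% did. These 7 were Trp53, Mdm4, Trp53bp1, Atm, Atr, Rpl5 and Rpl11. Rpl5 and Rpl11 encode ribosomal proteins. Rpl7, a ribosomal protein gene outside the list and chosen after its values were seen, was lower too (-0.43 and -0.19). Against E7.5 WT, Atm (0.83 and 0.82), Atr (0.64 and 0.39), Mdm4 (0.42 and 0.18) and Trp53bp1 (0.21 and 0.29) were higher in both KO libraries. The KO levels of these genes thus lay between those of the WT stages. Trp53 (-0.28 and -0.18), Rpl5 (-0.53 and -0.34) and Rpl11 (-0.56 and -0.30) were below E7.5 WT as well. Atr, the kinase that senses stalled replication forks, was at -0.25 (-0.39 to -0.11) and -0.49 (-0.63 to -0.36). Usp28, a deubiquitinase that binds 53BP1, went in opposite directions (-0.47 and 0.44), as did Trp73, a p53 relative, with 50, 16, 7 and 38 reads (-0.55 and 1.16). The median was -0.24 in KO1 and -0.11 in KO2.

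Other direct p53 targets differed in both directions. Of 30 listed, 29 were kept, 1 was higher past the threshold in both KO libraries (3.44% of all genes), 6 had both intervals above 0 (Sesn1, Sesn2, Tnfrsf10b, Tap1, Dcxr and Abhd4, against 13.7% of all genes) and 2 both below (Gadd45a and Ptp4a3, against 15.8%), with medians of -0.00 and 0.13. The gene past the threshold was Tap1, the peptide transporter of antigen presentation, with 40 and 5 reads in E7.5 and E8.5 WT, against 22 and 62 in KO1 and KO2 and changes of 2.26 (1.25 to 4.44) and 3.17 (2.35 to 5.32). Abhd4, a lipase, was at 0.89 and 0.97. Against E7.5 WT, Tap1 was at -0.34 and 0.57, Abhd4 at 0.17 and 0.26, Sesn2 at -0.14 and 0.18 and Dcxr at -0.09 and 0.10. Sesn1 (0.39 and 0.45) and Tnfrsf10b (0.63 and 0.52) were above E7.5 WT in both KO libraries. Gadd45a, a stress sensor of the growth arrest family, had 61 and 202 reads in E7.5 and E8.5 WT, against 79 and 77 in KO1 and KO2. It was at -0.79 (-1.20 to -0.42) and -1.35 (-1.78 to -0.99) against E8.5 WT, and at 0.85 and 0.29 against E7.5 WT. Perp, Plk3 and Fdxr, chosen after their values were seen, differed from E8.5 WT past the threshold in KO2 (1.29, 1.64 and 1.16) and not in KO1 (-0.12, 0.05 and -0.03). Against E7.5 WT they were at -0.56, -0.38 and 0.28 in KO2, whereas Pmaip1 was at 0.95. Plk2, of the same list and also chosen after its values were seen, went the other way in KO2. It differed from E8.5 WT by -0.09 (-0.36 to 0.19) in KO1 and -1.33 (-1.68 to -1.03) in KO2.

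Among the paralogs of members, of which 9 were kept, Trp53inp2 passed the threshold in both KO libraries. This autophagy protein and relative of Trp53inp1 had 441 and 363 reads in E7.5 and E8.5 WT, against 560 and 817 in KO1 and KO2, and changes of 1.17 (0.98 to 1.37) and 1.18 (1.0 to 1.36). The cyclin-dependent kinase inhibitors related to Cdkn1a were higher by less, Cdkn1b by 0.39 and 0.36 and Cdkn1c by 0.29 and 0.24. Against E7.5 WT, Trp53inp2 (0.84 and 0.85), Cdkn1b (0.69 and 0.67) and Cdkn1c (1.33 and 1.28) were higher too, and Phlda2 was lower (-0.43 in both). The list had 5 genes with both intervals above 0 (Cdkn1b, Cdkn1c, Trp53inp2, Phlda2 and Bak1, against 13.7% of all genes) and 1 below (Mdm4, against 15.8%).

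In the BCL2 family no kept gene passed the threshold in both KO libraries. Bak1, the effector that acts alongside Bax, was higher than in E8.5 WT by 0.47 (0.33 to 0.61) and 0.66 (0.54 to 0.78). It had 1211 and 889 reads in E7.5 and E8.5 WT, against 841 and 1392 in KO1 and KO2. Against E7.5 WT it was at -0.02 (-0.15 to 0.10) and 0.17 (0.05 to 0.28). Bak1 was the 1 gene of the 10 other pro-apoptotic members with both intervals above 0, where 13.7% of all genes had them. Bnip3 and Bnip3l, receptors of mitophagy, had both below 0, where 15.8% of all genes did. Bnip3 had 1785 and 1382 reads in E7.5 and E8.5 WT, against 433 and 872 in KO1 and KO2, or changes of -1.12 (-1.28 to -0.97) and -0.65 (-0.78 to -0.53). The BH3-only Hrk (-0.77 and 0.84) and the effector Bok (-0.50 and 0.47) went in opposite directions. Of the 4 kept survival genes Mcl1 alone had both intervals below 0 (-0.22 and -0.15), against 15.8% of all genes. Bcl2l2 was at -0.18 and -0.20, and Bcl2 at 0.07 and -0.77.

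Downstream, no kept gene of the apoptosome and caspase list passed the threshold in both KO libraries. Of its 11 kept genes 2 had both intervals above 0 (13.7% of all genes) and 3 both below (Cycs, Casp2 and Aifm1, against 15.8%), with medians of 0.03 and 0.03. Casp8, the initiator below death receptors and 1 of the 2 above, was at 0.77 (0.50 to 1.06) and 0.37 (0.10 to 0.65). The nuclease Endog was at 0.33 (-0.09 to 0.75) and 0.62 (0.27 to 0.99). Against E7.5 WT, Casp8 was at 1.14 and 0.74, and Endog was lower, at -0.71 and -0.42. Of 6 caspase inhibitors Birc3 (0.81 and 1.30) had both intervals above 0, against 13.7% of all genes. Xiap (-0.28 and -0.37), Birc2 (-0.41 and -0.23) and Birc6 (-0.09 and -0.22) had both below 0, against 15.8%. Against E7.5 WT, Xiap was at 1.23 and 1.14 and Birc6 at 0.84 and 0.71, so the KO levels of these lay between those of the WT stages. Birc3 differed from E7.5 WT by 0.21 (-0.40 to 0.84) in KO1 and 0.70 (0.20 to 1.25) in KO2.

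Of 12 death receptor genes 8 were kept, 3 had both intervals above 0 (13.7% of all genes) and none both below (15.8%), with medians of 0.31 and 0.58. The 3 were the tumour necrosis factor receptor Tnfrsf1a (0.60 and 0.68), its adaptor Tradd (0.81 and 0.62) and the kinase Ripk1 (0.76 and 0.70). Ripk1 had 259 and 230 reads in E7.5 and E8.5 WT, against 267 and 371 in KO1 and KO2. Against E7.5 WT the changes were 0.19 and 0.28 for Tnfrsf1a, 0.61 and 0.41 for Tradd, and 0.54 and 0.48 for Ripk1. The ligands Fasl, Tnfsf10 and Tnf had at most 3 reads in any library.

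**Figure D5:**
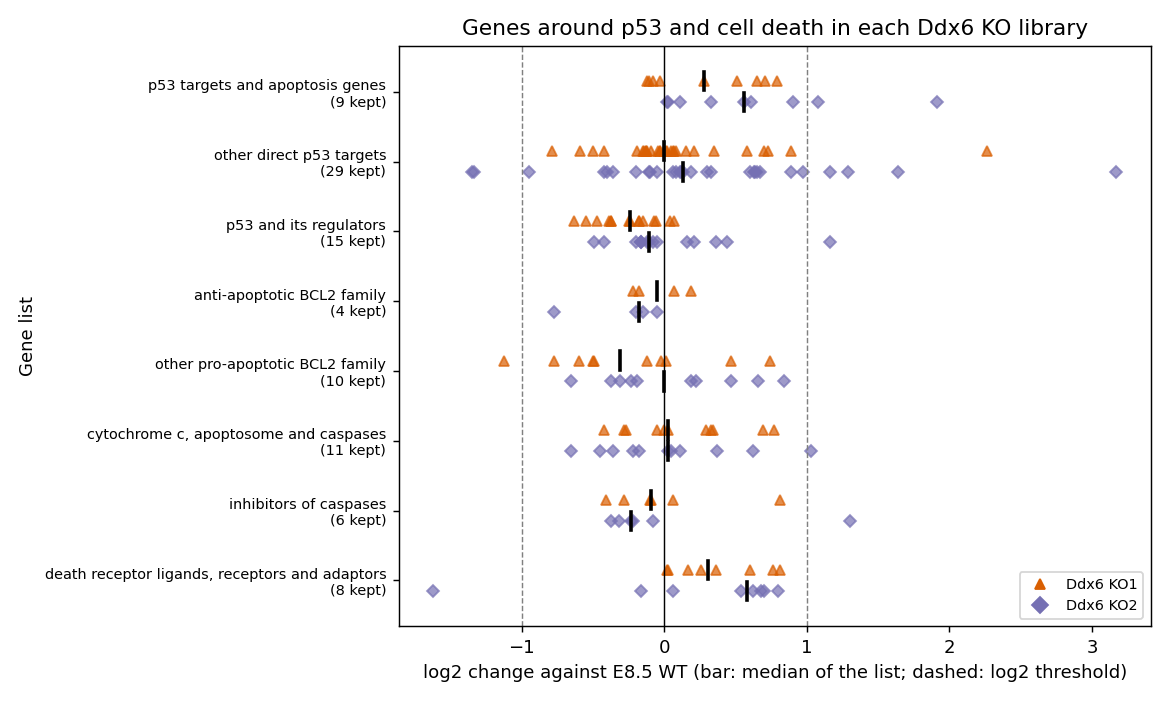
The plot gives the log2 change against E8.5 WT (horizontal axis) of each kept gene in 8 lists (vertical axis), with triangles for KO1, diamonds for KO2 and black bars for the list's median in that library; dashed lines mark the threshold of 1. The medians of the p53 target and apoptosis genes (0.28 and 0.56) and of the death receptor list (0.31 and 0.58) lie to the right of 0 in both libraries. That of the apoptosome and caspase list (0.03 and 0.03) lies near 0. Those of the p53 regulators (-0.24 and -0.11), the anti-apoptotic BCL2 family (-0.05 and -0.18) and the caspase inhibitors (-0.09 and -0.23) lie to the left.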

How the data were processed

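RNA sequencing of polyadenylated transcripts gave 4 libraries, grouped by the sample labels. The authors deposited raw counts for each gene, not normalized. Per the authors' methods and the submitters' processing notes, reads from a stranded kit were trimmed (Cutadapt 2.8), checked (FastQC 0.11.7), aligned to mm10 (HISAT2 2.1.0, SAMtools 1.9) and counted over exons on the reverse strand (featureCounts 2.0.0), so antisense reads were not added. The number of embryos in each WT library was not given in the sources used here.

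TMM factors over the whole table (0.983 and 0.978 in E7.5 and E8.5 WT, 1.02 and 1.01 in KO1 and KO2) and log2 CPM came from edgeR 4.0.16 under R 4.3.3. A gene was kept when any library had 10 or more counts. edgeR's two-sided quasi-likelihood test with Benjamini-Hochberg adjustment over all kept genes was fitted with 3 groups and with KO against both WT libraries, with DESeq2 1.42.0 as the alternative. The fits were tested on simulated data whose changes were larger than those of the members and held no difference of stage. That run does not show whether changes as small as those of the members would be found. Reads carry no molecular identifiers, so intervals cover counting error only. Positions and exon lengths came from GENCODE (GRCm38). Genes that are no members were named where past the threshold in both KO libraries, up to 3 per list by the smaller absolute change. The members and lists were chosen with earlier results of these data known. The counting-interval rule and the promoter search were added after values were seen. Values of a few listed genes are not reported here.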

Additional observations from a re-analysis of the deposited data

How the results depend on the processing

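Each alternative changed 1 choice. The count of members past the threshold in both KO libraries against E8.5 WT was 0 and stayed 0 under plain library totals, DESeq2 size factors, a prior count of 0.5, no minimum count and a minimum of 50 counts. It was 4 at a threshold of 0.5 and ran from 0 to 2 when a KO library was left out: 2 without KO1 (Ccng1 and Pmaip1) and 0 without KO2. Against E7.5 WT the count of 2 was 4 at a threshold of 0.5, 1 with at least 50 counts, 3 with no minimum, and 3 when either KO library was left out. Between the WT stages the count of 2 was 5 at 0.5, 1 with at least 50 counts and 3 with no minimum. Over all genes, the 495 higher and 257 lower were 1467 and 781 at 0.5, 259 and 130 with at least 50 counts, 653 to 1394 higher when a KO library was left out and 456 to 846 lower, the larger counts being those without KO1. The higher-minimum counts rest on fewer genes tested.

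The count of 4 members with intervals above 0 was 4 to 5 in every alternative run (chosen after the data were seen), 5 being without KO1. The median member change was 0.42 as the mean over the KO libraries, and ran from 0.28 without KO2 to 0.56 without KO1. Plain totals, DESeq2 size factors or the smaller prior shifted no member's mean change by more than 0.06. Plain totals shifted Cdkn1a, Bbc3 and Bax by more than the spread between the KO libraries, to 0.59, 0.36 and 0.05, and the changes of Mdm2, Bax and Eda2r, which lie near 0, took the other sign there. No member passed the adjusted p in edgeR or DESeq2 under any alternative run. The edgeR test against E8.5 WT could not be fitted without a KO library, since no residual degrees of freedom remain. No paired analysis was possible because the WT libraries are 1 per stage and share no second replicate number with the KO libraries. Depth limits Fas, Eda2r and Bbc3 most.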
